A study of Mus musculus with 4 samples.

Results

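Indirect pathway projection neurons of the striatum were taken as the nuclei that carried RNA of *Drd2*, *Adora2a*, *Penk* and *Gpr6* on a striatal background, and 1132 of the 24446 nuclei that passed the quality filters were of this kind. A nucleus here is a cell barcode with at least 1000 unique molecular identifiers (UMIs, each standing for 1 captured RNA molecule), 200 to 2500 genes and at most 10% mitochondrial UMIs. A nucleus was counted as indirect pathway when *Rarb* and *Rgs9* together had at least 2 UMIs, *Pde10a* had at least 2, the 4 indirect pathway genes together had at least 2, and *Drd1*, *Tac1*, *Eya1*, *Isl1* and *Pdyn* together had at most 1 and fewer than the indirect pathway genes. Because measured values chose these nuclei, the levels of those genes in them are given as a description.

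The nuclei came from frozen sections of brains of female 5XFAD mice, which carry transgenes with familial Alzheimer mutations, human *APP* among them, under the neuronal Thy1 promoter. Mice of 7 to 10 weeks received into a vein a dose of 6550000000 extracellular vesicles (EVs) of low (PE-low) or high (PE-high) content of phosphatidylethanolamine (PE), a membrane phospholipid. The paper describes engineered EVs, rebuilt from the lipids of adipocyte EVs of chow-fed mice and free of their nucleic acids and proteins. They carried transferrin for delivery to the brain, and the PE-high EVs were enriched with selected PE species. The study asked how this lipid load acts on the diseased brain. Each group had 2 libraries and each library pooled nuclei of 2 mice, so that a p-value measures the spread between libraries. Both groups carried the transgenes and both received EVs, and no wild-type or PBS-treated library was analysed here.

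PE-low replicates 1 and 2 and PE-high replicates 1 and 2, the order used for all lists of 4 values, held 41470611, 43272337, 32515094 and 29472021 UMIs over all barcodes. They gave 450, 259, 181 and 242 indirect pathway nuclei with a median of 2259.5, 2961, 1784 and 1652.5 UMIs. The members of the PE-high libraries were shallower than those of the PE-low libraries. No cell barcode of a member occurred as a member in more than 1 library, and any 2 libraries shared 5 to 17 barcodes among all nuclei.

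In textbook accounts, both classes of striatal projection neuron share DARPP-32, GABA synthesis and phosphodiesterase 10A but differ in their dopamine receptor. Indirect pathway neurons bear the D2 receptor, which lowers cyclic AMP, together with an adenosine receptor encoded by *Adora2a*, which raises it, make enkephalin from *Penk*, and project to the external globus pallidus. Direct pathway neurons bear the D1 receptor, make substance P and dynorphin, and project to the substantia nigra and the internal pallidum.

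The promoters of 3 receptor genes that were higher in indirect than in direct pathway nuclei show the sequence in front of the genes that the comparison turns on. *Drd2* and *Gpr6* belong to the rule, and *Grik3* does not. Each run is the 250 bases before the RefSeq gene start in GRCm38.p6, written 5′ to 3′ on the strand of the gene, with a GC box (GGGCGG, or CCGCCC on the other strand) or a full cAMP response element (TGACGTCA, the same on both strands) in capitals. The 2 motifs cannot overlap in their letters.
Drd2 at chr9:49340153-49340402, plus strand: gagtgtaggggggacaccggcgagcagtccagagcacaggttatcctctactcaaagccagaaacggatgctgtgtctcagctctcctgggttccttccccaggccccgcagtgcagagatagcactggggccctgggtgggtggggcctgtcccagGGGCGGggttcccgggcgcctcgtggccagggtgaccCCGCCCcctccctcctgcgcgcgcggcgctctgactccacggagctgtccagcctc
Gpr6 at chr10:41072291-41072540, minus strand: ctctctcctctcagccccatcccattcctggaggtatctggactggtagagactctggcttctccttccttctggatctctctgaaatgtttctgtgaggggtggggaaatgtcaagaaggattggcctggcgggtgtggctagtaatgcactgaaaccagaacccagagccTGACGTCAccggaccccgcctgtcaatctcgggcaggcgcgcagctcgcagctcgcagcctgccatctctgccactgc
Grik3 at chr4:125490446-125490695, plus strand: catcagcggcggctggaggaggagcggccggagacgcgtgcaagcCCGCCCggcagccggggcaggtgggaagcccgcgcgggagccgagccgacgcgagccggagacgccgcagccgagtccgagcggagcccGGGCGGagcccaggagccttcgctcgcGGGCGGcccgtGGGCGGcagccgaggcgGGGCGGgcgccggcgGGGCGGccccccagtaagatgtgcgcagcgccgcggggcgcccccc
The *Drd2* window held 2 GC boxes, which began 93 and 56 bases before the start, and *Grik3* held 6. The *Gpr6* window held 1 cAMP response element, which began 78 bases before the start. Of 32851 mouse promoters of this length, 32.7% held a GC box and 1.55% the cAMP response element. These matches describe the letters in the windows, and no binding was measured.

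Indirect pathway nuclei made up 6.46%, 4.50%, 3.19% and 4.0% of the nuclei in the 4 libraries, with 95% Wilson intervals of 5.91 to 7.06%, 3.99 to 5.07%, 2.77 to 3.69% and 3.53 to 4.52%, which cover counting error only. Both PE-low libraries had the larger shares. The mean was 5.48% ± 1.39 (SD, n = 2) in PE-low and 3.60% ± 0.57 (SD, n = 2) in PE-high, and the exact two-sided permutation test gave p = 0.333, the smallest value that 2 libraries against 2 can give. The intervals of PE-low replicate 2 and PE-high replicate 2 overlapped. The PE-high members were also shallower. Among nuclei with at least 2000 UMIs the shares were 7.66% and 6.18% in PE-low and 2.95% and 3.66% in PE-high. Under a stricter gate (at least 3 indirect and no direct pathway UMIs) they were 3.14% and 2.73% against 1.15% and 1.78%. The PE-low libraries had the larger shares in both settings. Neither setting makes depth equal between the libraries, and the part of depth in the shares was not tested. Nuclei with the striatal background made up 25.2%, 16.7%, 21.1% and 21.4% of all nuclei, which overlapped between the treatments. The members were 25.6%, 26.9%, 15.1% and 18.7% of these, lower in both PE-high libraries. The direct pathway nuclei described below numbered 268, 146, 108 and 121 of 1757, 964, 1197 and 1296 nuclei with the striatal background. Their share was also lower in both PE-high libraries, so this order was not particular to the members.

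Among nuclei assigned to either pathway, the indirect share was 62.7%, 64.0%, 62.6% and 66.7%, a mean of 64.0% ± 1.89 (SD, n = 4), and these 4 values overlapped between the treatments. It was 63.3% ± 0.90 (SD, n = 2) in PE-low and 64.6% ± 2.85 (SD, n = 2) in PE-high (exact two-sided permutation p = 1.0). The value depended on the genes of the gates. With *Drd2* left out of both gates it was 51.2%, 49.1%, 43.0% and 46.6%, without *Penk* 49.6%, 57.0%, 46.3% and 53.8%, and without *Tac1* 85.2%, 77%, 83.6% and 87.2%. With at least 2000 UMIs per nucleus it was 59.4% and 63.6% in PE-low and 56.0% and 59.4% in PE-high. The direct pathway gate, which mirrors the indirect one, found 268, 146, 108 and 121 nuclei. A further 3388 of the 5214 nuclei with the striatal background had too few pathway UMIs for either class, and 51 had at least 2 of both.

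The 4 genes of the rule did not carry it equally. *Drd2* (chr9:49340627-49408177) was at 496, 602, 628 and 768 UMIs per 1000000 UMIs (CPM) in the members, and *Adora2a* (chr10:75316877-75334784) at 256, 195, 197 and 244. *Penk* (chr4:4133531-4138819) was at 530, 351, 557 and 560 CPM. *Gpr6*, an orphan receptor coupled to cyclic AMP, was at 50.8, 35.5, 44.0 and 49.7 CPM. *Drd2* was detected in 75.5% of members, *Penk* in 68.4%, *Adora2a* in 42.1% and *Gpr6* in 10.1%. *Drd2* and *Penk* were the genes most often seen, and *Gpr6* the least. Of the genes that set the striatal background, *Rarb*, a retinoic acid receptor, was at 1318, 1397, 1382 and 1410 CPM and *Pde10a* at 3578, 4178, 3430 and 3543 CPM.

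The genes of the rule were also found outside the members, at unequal levels. In near-empty barcodes, those with 100 to 400 UMIs, *Penk* stood at 542, 305, 385 and 417 CPM, above its level in the members in PE-low replicate 1 and below it in the other 3 libraries, while *Drd2* stood at 40.8, 31.1, 30.8 and 35.7 CPM. *Penk* was also detected in 12.6% of nuclei with oligodendrocyte RNA, which should lack it, at a median depth of 1221 to 1264.5 UMIs. In the same nuclei *Drd2* was detected in 0.63%. In direct pathway nuclei the gate itself holds the 4 genes together to at most 1 UMI, so their shares there are not given.

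Of the members, 263 showed 1 of the 4 genes, 661 showed 2, 197 showed 3 and 11 showed all 4. At the edge of the rule lay 478 members with exactly 2 indirect pathway UMIs, which was 38.9%, 30.9%, 59.1% and 47.9% of the members of each library. The PE-high libraries had the larger share of such thinly supported members. Another 697 nuclei just outside had 1 such UMI and no direct pathway UMI.

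Genes that the rule did not use differed with the number of indirect pathway UMIs (plot of marker levels by UMI class). Nuclei with the striatal background were split by their indirect pathway UMIs. Those with 0 or 1 such UMI were taken only where they held no direct pathway UMI, while the members, with 2 or more, could hold 1. The summed level of 7 other indirect pathway markers (*Gpr52*, *Sp9*, *Plxdc1*, *Grik3*, *Ttc12*, *Oprd1* and *Ptprm*) was 231 CPM at 0 UMIs, 474 CPM at 1, 543 CPM at 2, 675 CPM at 3, 719 CPM at 4 and 631 CPM at 5 or more. The level of 8 other direct pathway markers was 597, 339, 286, 225, 220 and 290 CPM in the same classes. The step between 0 and 1 UMI was larger than the step between 1 UMI, just outside the rule, and 2, just inside it, in both lists. These classes hold different depths and differ in their limit on direct pathway UMIs, and are given with no test.

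**Figure D1:**
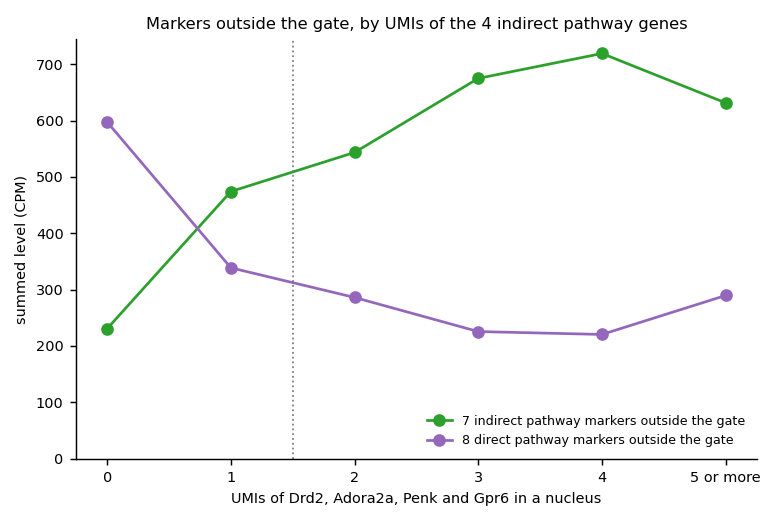
Summed level (CPM, y axis) of other indirect pathway markers and other direct pathway markers in striatal nuclei split by the number of UMIs of the 4 indirect pathway genes (x axis), those with 0 or 1 holding no direct pathway UMI, pooled over the 4 libraries, with a dotted line at the edge of the rule. The indirect pathway markers went from 231 CPM at 0 UMIs to 543 CPM at 2, and the direct pathway markers went from 597 to 286 CPM.

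Each gene of the rule was next measured in nuclei chosen without it, by leaving it out of the indirect and direct gates together. UMIs were summed per library, and the indirect and direct pathway sums of the same libraries were compared by the edgeR quasi-likelihood test with the library as a block, p-values adjusted over all genes (Benjamini-Hochberg) and a threshold of 0.1. The 7 genes that had enough counts passed in the direction that the rule uses, and *Eya1* and *Isl1* were too low to be tested. *Drd2*, *Adora2a*, *Gpr6*, *Drd1* and *Pdyn* had few UMIs in the class where they are low and passed the filter on counts through the other class, so the count of 7 is a description.

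The D2 receptor gene *Drd2* stood at 355, 471, 304 and 445 CPM in indirect and at 12.8, 5.69, 13.2 and 51.9 CPM in direct pathway nuclei. The difference was 23.9-fold (log2 4.58, SE 0.21, adjusted p = 8.2e-30). No direct pathway value reached the lowest indirect one, and PE-high replicate 2 had the highest direct value. *Adora2a*, the adenosine receptor gene, stood at 191, 149, 111 and 142 against 13.0, 5.60, 9.14 and 8.20 CPM, a 16.8-fold difference (log2 4.07, SE 0.24, adjusted p = 6.79e-20). *Gpr6* stood at 34.8, 31.0, 27.2 and 28.2 against 11.5, 0, 13.5 and 0 CPM, on 8, 0, 3 and 0 direct pathway UMIs (log2 2.27, SE 0.44, adjusted p = 0.000742). *Gpr6* was thus the least certain of the 4 in size.

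*Penk*, the precursor of enkephalin, stood at 420, 258, 283 and 362 against 120, 44.0, 73.1 and 123 CPM, a 3.85-fold difference (log2 1.95, SE 0.14, adjusted p = 5.25e-13). Its groups did not overlap, and its fold was the smallest among the 4 indirect pathway genes. Its level in near-empty barcodes was above that in the direct pathway nuclei in all 4 libraries, and the part of free RNA in the fold was not tested.

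The direct pathway genes were lower in nuclei chosen without them. *Drd1*, the D1 receptor gene, stood at 13.4, 11.3, 11.7 and 18.0 CPM in indirect and 152, 107, 112 and 128 CPM in direct pathway nuclei (log2 -3.23, SE 0.24, adjusted p = 3.36e-16). *Tac1*, the precursor of substance P, differed by log2 -1.73 (SE 0.18, adjusted p = 1.41e-08), and *Pdyn*, the precursor of dynorphin, by log2 -2.70 (SE 0.36, adjusted p = 3.47e-08). Each was lower in the indirect pathway nuclei of 4 of 4 libraries. In the members, *Tac1* was at 67.1, 32.9, 52.8 and 45.2 CPM, under its 522, 222, 386 and 444 CPM in near-empty barcodes. The rule holds the direct pathway genes to at most 1 UMI per member, so this level is a description.

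**Figure D2:**
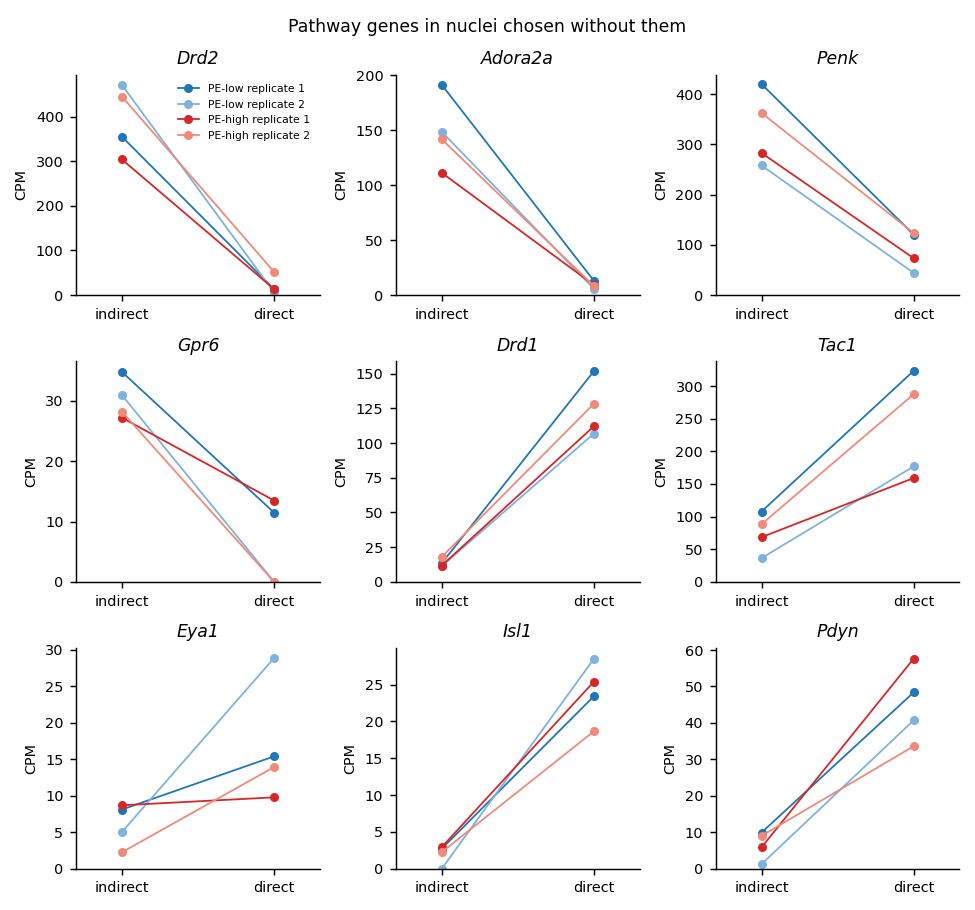
Level (CPM, y axis from 0) of each of the 9 pathway genes in indirect and direct pathway nuclei (x axis) chosen without that gene, 1 point per library, with a line joining the points of the same library. *Drd2* lay between 304 and 471 CPM in indirect and between 5.69 and 51.9 CPM in direct pathway nuclei.

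The label was also checked against markers of other cells, whose summed levels were below those of near-empty barcodes. Oligodendrocyte markers were at 721, 730, 587 and 479 CPM in the members and at 4119, 4925, 2677 and 3089 CPM in near-empty barcodes. Astrocyte markers, led by *Slc1a2*, were at 397, 341, 508 and 452 CPM against 2182, 2465, 2336 and 2102 CPM. Microglia markers were at 145, 89.9, 155 and 124 CPM against 563, 469, 587 and 584 CPM, with *C3* at 0 in all 4 libraries. Endothelial markers were at 13.6, 5.07, 5.87 and 27.1 CPM, with *Cdh5* at 0 throughout, and oligodendrocyte precursor markers at 52.6, 21.5, 29.3 and 24.9 CPM.

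Among other neurons, excitatory markers, led by *Camk2a*, were at 1021, 893, 1003 and 969 CPM in the members, against 3233, 2870, 3225 and 3220 CPM in near-empty barcodes. Interneuron markers were at 208, 118, 246 and 249 CPM against 1082, 1093, 1126 and 1193 CPM. The striatal marker list, in contrast, stood at 22120, 26321, 22034 and 23960 CPM in the members against 4647, 4179, 4102 and 4388 CPM. In single members, 25 had at least 4 oligodendrocyte marker UMIs, 9 had at least 2 of *Slc17a7* and 6 had at least 3 astrocyte marker UMIs. Doublets were not removed.

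Indirect pathway nuclei were then compared with direct pathway nuclei over the genes that neither gate used. Of 6617 genes tested, 372 passed (5.62%), 173 higher (2.61%) and 199 lower (3.01%) in indirect pathway nuclei, around a median log2 difference of 0.00 over all genes. The direction of the 173 higher genes was found in 172, 170, 162 and 163 of them in the single libraries, and that of the 199 lower genes in 199, 196, 184 and 190. The same libraries chose these genes, so this agreement is a description. DESeq2 called 121 genes and the fit without the library block 162.

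Markers outside the rule were looked at first. Of the 7 indirect pathway markers, 3 had enough counts and were higher, and of the 8 direct pathway markers, 5 had enough and were lower. A marker that is high in 1 class only passes the filter through that class, so these counts are a description. The kainate receptor gene *Grik3* stood at 212, 214, 155 and 192 CPM in indirect and 10.1, 24.6, 32.0 and 29.2 CPM in direct pathway nuclei, a 9.91-fold difference (log2 3.31, SE 0.20, adjusted p = 1.17e-19). The classes were far apart in every library. *Oprd1*, the delta opioid receptor at which enkephalin acts, stood at 52.6, 46.9, 44.0 and 56.5 against 7.24, 9.48, 4.57 and 8.33 CPM (log2 2.68, SE 0.33, adjusted p = 7.77e-09). *Ptprm*, a receptor tyrosine phosphatase, stood at 303, 318, 302 and 350 against 63.7, 47.4, 133 and 45.8 CPM (log2 2.28, SE 0.15). For neither gene did the classes overlap.

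The direct pathway markers were led by *Ebf1*, a transcription factor needed for the differentiation of direct pathway neurons, which stood at 7.25, 13.9, 2.93 and 6.78 against 171, 269, 86.8 and 208 CPM (21.9-fold lower in indirect pathway nuclei, log2 -4.45, SE 0.21, adjusted p = 2.02e-24). *Zfp521*, a zinc finger factor, differed by log2 -3.19 (SE 0.28), the D3 receptor gene *Drd3* by -1.96 (SE 0.25) and *Sfxn1*, a mitochondrial serine carrier, by -1.61. *Reln*, the extracellular matrix protein reelin, differed by log2 -0.45 (SE 0.11, adjusted p = 0.00399). *Reln* overlapped between the classes, at 213, 170, 185 and 217 against 301, 241, 187 and 342 CPM, and did not pass by DESeq2, without the library block, at the 3% mitochondrial limit, under the stricter gate or after thinning.

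Of the other named genes higher in indirect pathway nuclei, *Chrm3*, a muscarinic acetylcholine receptor, stood at 329, 395, 367 and 432 against 43.4, 92.9, 146 and 62.5 CPM (log2 2.30, SE 0.14). *Nt5e*, the surface enzyme that makes adenosine from AMP, stood at 42.6, 124, 91.0 and 104 against 13.0, 19.0, 27.4 and 20.8 CPM (log2 2.22, SE 0.24). *Adk*, adenosine kinase, which removes adenosine inside the cell, stood at 198, 275, 226 and 224 against 40.6, 56.9, 73.1 and 75.0 CPM (log2 2.06, SE 0.15). None of the 3 overlapped between the classes, and the PE-low replicate 1 value of *Nt5e* was the lowest of its 4.

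The remaining named genes that were higher in indirect pathway nuclei had varied roles. *Sgcz*, a sarcoglycan, was abundant at 4460, 4986, 4398 and 4508 against 2067, 2432, 2225 and 2517 CPM (2.03-fold, log2 1.02, SE 0.05). *Unc5d*, of the netrin receptor family, stood at 356, 423, 428 and 398 against 78.2, 66.3, 151 and 108 CPM (log2 2.15, SE 0.13). The differences were log2 1.93 for the secreted protein gene *Nell1*, 1.66 for *Necab1*, a calcium-binding protein, 1.12 for the transcription factor *Zfhx3* and 1.01 for *Gucy1a1*, a subunit of the nitric oxide receptor guanylyl cyclase. The adjusted p (edgeR) of these 6 genes ran from 8.37e-23 for *Sgcz* to 1.15e-06 for *Gucy1a1*.

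Among the genes lower in indirect pathway nuclei, *Lingo2*, a neuronal leucine-rich repeat protein, had the smallest p. It stood at 299, 219, 376 and 255 against 1673, 2411, 1997 and 2133 CPM (7.12-fold lower, log2 -2.83, SE 0.09, adjusted p = 2.59e-32). *Foxp2*, a transcription factor of the striatum, stood at 224, 138, 205 and 246 against 841, 732, 882 and 767 CPM (log2 -1.99, SE 0.09). For both genes each indirect pathway value was below each direct pathway value.

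The ligand *Nrg3* and its receptor *Erbb4* were both lower. *Nrg3* stood at 812, 813, 1094 and 1033 against 2115, 2394, 2586 and 2279 CPM (log2 -1.33, SE 0.06), and *Erbb4* at 190, 87.4, 270 and 206 against 697, 720, 983 and 688 CPM (log2 -2.09, SE 0.11). *Nrg3os*, annotated antisense to *Nrg3*, differed by log2 -1.29 (SE 0.13), and reads of such a pair can be told apart only by strand, whose use in the counting is not given in the sources used here. *Cntnap3*, of the contactin-associated family, differed by log2 -3.26, the syntrophin gene *Sntg2* by -3.13, *Il1rapl2*, a synaptic adhesion protein of the interleukin 1 receptor family, by -2.03 and the axon guidance gene *Sema6d* by -1.06.

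**Figure D3:**
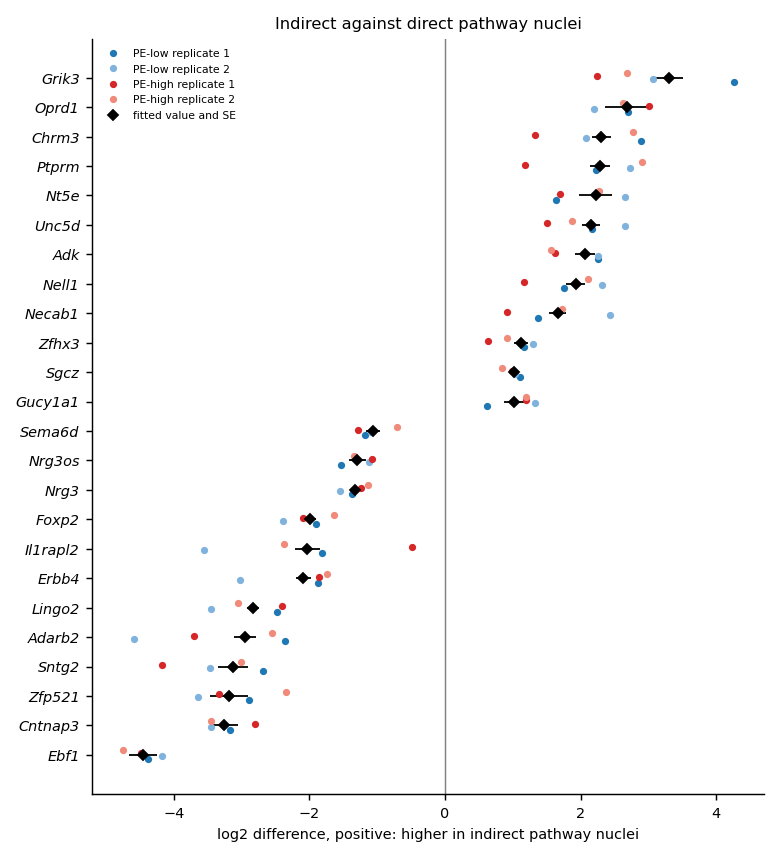
Log2 difference of indirect from direct pathway nuclei (x axis) for the 12 higher and 12 lower named genes, with 1 coloured point per library and a black diamond for the fitted value with its SE. By selection, all points of the higher genes lie right of 0 and all points of the lower genes left of 0. *Grik3* (3.31) and *Ebf1* (-4.45) lie at the ends.

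Genes of striatal subdivisions were set beside the 5.62% that passed among all genes. Of 6 matrix genes and 3 dorsolateral gradient genes tested, 0 passed by edgeR, with a median log2 difference of 0.09 and 0.06, 1 and 0 had an unadjusted p under 0.05, and DESeq2 called 0. Of 6 striosome genes tested (the striosome is a patch compartment within the matrix), 1 was lower, the semaphorin gene *Sema5b* (log2 -0.64, SE 0.18). Of 3 ventromedial genes tested, 2 were lower, *Crym*, which binds thyroid hormone (log2 -0.74, SE 0.20), and *Wfs1*, an endoplasmic reticulum membrane protein (log2 -0.75, SE 0.26). DESeq2 called none of these 3 genes.

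All 3 tested genes of the eccentric type, a rarer projection neuron that shares genes with the direct pathway, were lower in indirect pathway nuclei. DESeq2 called 2 of these 3 genes, and 3.01% of all genes were lower by edgeR. *Adarb2*, of the RNA editing enzyme family, stood at 57.1, 10.1, 29.3 and 67.8 against 297, 265, 393 and 404 CPM (log2 -2.95, SE 0.17). *Otof*, otoferlin, differed by log2 -1.48 (SE 0.25) and the transcription factor *Tshz1* by log2 -0.62 (SE 0.20). *Tshz1* overlapped between the classes. *Adarb2* also marks interneurons, and 1 of the 3 interneuron markers tested was lower, this same gene. The number of eccentric nuclei within the direct pathway gate was not tested.

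Genes shared by all striatal projection neurons came next. Of 19 markers outside the gate, 18 could be tested, 5 were higher and 1, *Foxp2*, lower in indirect pathway nuclei, beside 2.61% higher and 3.01% lower over all genes, with a median log2 difference of 0.20. The transcription factor *Foxp1* stood at 2380, 2734, 2171 and 2386 against 1844, 1928, 1531 and 1767 CPM (log2 0.47, SE 0.055). *Meis2*, a homeobox factor, differed by log2 0.38 (SE 0.06) and *Phactr1*, a regulator of protein phosphatase 1, by log2 0.28 (SE 0.04). *Pde7b* was higher by log2 0.22. DESeq2 called 4 of the 18 markers.

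Of 52 genes of dopamine and cyclic AMP signalling tested, 7 were higher, 3 were lower and 42 did not pass, with a median log2 difference of 0.10. DESeq2 called 4 genes of this list. Over all genes of this comparison 2.61% were higher and 3.01% lower, and the counts of this list and of those that follow stand beside these shares. *Pde4b* and *Pde4d*, phosphodiesterases that break down cyclic AMP, each differed by log2 0.69, with an SE of 0.07 and 0.11. *Pde4b* stood at 1653, 1455, 1784 and 1494 against 1082, 749, 1174 and 1088 CPM. The classes did not overlap for *Pde4b*. The 3 lower genes were *Rasgrf2*, a Ras exchange factor (log2 -1.03), the inhibitory G protein gene *Gnai1* (-0.79) and *Prkg1*, a cyclic GMP-dependent kinase (-0.55). Of 29 neuropeptide, opioid and endocannabinoid genes, 3 were higher, among them *Oprd1* and the serotonin receptor gene *Htr2c* (log2 0.53, SE 0.10). The peptide amidating enzyme gene *Pam* was the 1 that was lower (log2 -0.39), and DESeq2 called 2 of the 29 genes.

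By DESeq2, 2 of 34 glutamate and GABA receptor genes passed. By edgeR, *Grik3* was the 1 that was higher and 3 were lower. Among these, the kainate receptor gene *Grik2* stood at 1724, 1891, 1760 and 1672 against 2469, 2585, 2221 and 2300 CPM (log2 -0.43, SE 0.05), and *Grin3a*, an NMDA receptor subunit, differed by log2 -1.36 (SE 0.29). The third was *Grik1* (log2 -1.28), so that *Grik1* and *Grik2* were lower while *Grik3*, of the same kainate receptor family, was higher. Of 43 potassium and sodium channel genes, 3 were higher and 6 lower, with *Kcnb2*, a delayed rectifier, at log2 -0.73 (SE 0.09) and *Kcnk2*, a leak channel, at log2 0.72 (SE 0.10). *Kcnip4* (log2 0.19) and *Kcnh7* (0.34) were also higher. DESeq2 called 4 of the 43 channel genes.

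Of 27 calcium release and pump genes, 2 were higher and 2 lower, among them *Cacna1e*, an R-type calcium channel (log2 0.49, SE 0.07), and the ryanodine receptor gene *Ryr1* (log2 -1.18, SE 0.18). The others were *Ryr3*, higher by log2 0.26, and *Slc8a1*, a sodium-calcium exchanger (log2 -0.36). DESeq2 called 3 of the 27 genes. Of the genes tested for endoplasmic reticulum stress (13), amyloid precursor processing (15), PE metabolism (10), P4-type flippases (9), which move PE between membrane leaflets, and immediate early genes (3), 0 passed by edgeR, 1 flippase had an unadjusted p under 0.05, and DESeq2 called 0. Their median log2 differences lay between -0.16 and 0.02. A gene that misses the threshold is not thereby shown to be equal. Of 2 astrocyte, 5 oligodendrocyte and 2 microglia markers tested, 0 passed by edgeR or DESeq2 and 0 had an unadjusted p under 0.05. Of 3 excitatory neuron markers *Nrgn* was higher by edgeR (log2 0.31), and DESeq2 called 0.

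To place the members among other neurons, they were compared with 552, 320, 309 and 325 nuclei that held at least 2 UMIs of *Slc17a7*, the vesicular glutamate transporter of cortical and hippocampal excitatory neurons, none of *Gad1* or *Gad2*, which make GABA, and lacked the striatal background. These genes and those of the rule were left out of the test. Of 8692 genes tested, 3375 passed (38.8%), 1583 higher (18.2%) and 1792 lower (20.6%) in indirect pathway nuclei. The gate of the excitatory nuclei bears on the striatal markers, whose counts are a description. Of 16 striatal markers tested, 15 were higher and 1, *Arpp21*, lower (log2 -0.76), with a median log2 difference of 2.22. Of 5 indirect pathway markers outside the rule, *Sp9*, *Ptprm*, *Oprd1* and *Grik3* were higher, by log2 2.42, 1.65, 1.63 and 0.75, and among the direct pathway markers *Reln* was higher by 2.48. *Sp9* stood on 5, 3, 4 and 1 UMIs in the excitatory nuclei and passed the filter on counts through the members, so that the count of these markers is a description. Of 6 excitatory neuron markers, 5 were lower, with the transcription factor genes *Neurod2* and *Neurod6* at log2 -2.28 and -2.16.

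The 8 named genes higher than in excitatory nuclei were as follows. *Dach1*, a transcriptional regulator, stood at 613, 779, 508 and 644 against 13.4, 31.5, 17.7 and 19.8 CPM (32.8-fold, log2 5.04, SE 0.14). *Pde1c*, a calmodulin-dependent phosphodiesterase, stood at 444, 377, 414 and 334 against 11.6, 8.28, 13.7 and 7.42 CPM (39.9-fold, log2 5.32, SE 0.16). *Pde7b*, a phosphodiesterase specific for cyclic AMP, differed by log2 2.87, the ryanodine receptor gene *Ryr3* by 3.11, *Cacnb2*, a calcium channel subunit, by 3.03, *Kcnab1*, a potassium channel subunit, by 2.85, *Spock3*, a proteoglycan, by 3.67 and the polarity gene *Pard3* by 3.32. All 8 were chosen as higher in 4 of 4 libraries.

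The 8 named genes lower than in excitatory nuclei had the values given here. *Dpp10*, a subunit of Kv4 potassium channels (chr1:123321471-124045559), stood at 687, 409, 1106 and 936 against 7198, 8518, 8455 and 9200 CPM (10.9-fold lower, log2 -3.45, SE 0.11). *Lingo2* and *Nrg3* were lower than in excitatory nuclei too, by log2 -3.12 (SE 0.10) and -2.51 (SE 0.08). *Rgs6*, a regulator of G protein signalling, differed by log2 -3.47, *Pdzrn3*, a ubiquitin ligase, by -4.44, *Car10*, related to the carbonic anhydrases, by -3.78, the adhesion gene *Dscam* by -3.69 and the phosphatase *Ppm1e* by -3.30.

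By pathway, 34 of 57 dopamine and cyclic AMP genes were higher than in excitatory nuclei and 14 lower, beside 18.2% higher and 20.6% lower over all genes, and the share that was lower lies near that of all genes. *Adcy5*, the main adenylyl cyclase of the striatum, stood at 584, 695, 440 and 574 against 58.4, 35.6, 56.0 and 43.3 CPM (log2 3.63, SE 0.13). *Gng7*, the G protein subunit that couples receptors to this cyclase, differed by log2 3.78 (SE 0.14). The classes lay apart in every library. Of 32 neuropeptide, opioid and endocannabinoid genes, 14 were higher and 10 lower, with the serotonin receptor genes *Htr4* and *Htr2c* at log2 3.43 and 2.49.

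Of 17 amyloid precursor processing genes tested, 1 was higher and 5 were lower than in excitatory nuclei, a share near the 38.8% that passed among all genes and so no result about this list. The higher one was *Mme*, neprilysin, a protease that degrades amyloid beta, which stood at 71.6, 86.1, 82.1 and 138 against 2.43, 1.66, 1.37 and 1.24 CPM, the latter on 4, 2, 1 and 1 UMIs. *Mme* had enough counts to be tested only through the indirect pathway nuclei, so its values are a description. *Apba2*, an adaptor that binds the amyloid precursor protein, differed by log2 -1.62 (SE 0.11), *Apba1* by -1.02, the alpha-secretase gene *Adam10* by -0.66, the insulin-degrading enzyme gene *Ide* by -0.61 and the sorting receptor gene *Sorl1* by -0.54. *App* stood at 501, 469, 552 and 502 against 556, 516, 483 and 455 CPM (log2 0.04, SE 0.09) and did not pass. Reads of the human transgene that map to mouse *App* cannot be told apart here. Of 14 PE metabolism genes, *Etnk1* and *Selenoi*, the first and last enzymes of the Kennedy pathway of PE synthesis, were higher, by log2 0.48 and 0.49, and 4 were lower, among them *Pisd*, which makes PE in mitochondria (-0.79), and *Napepld* (-1.97), which is also near the share of all genes. Of 10 flippases, 2 were higher, among them *Atp11a* (log2 1.10), and 4 were lower, with *Atp8b1* at -2.73.

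Among 34 glutamate and GABA receptor genes, 17 were higher and 14 lower, and among 44 potassium and sodium channel genes, 17 were higher and 21 lower, beside 18.2% higher and 20.6% lower over all genes. Of 28 calcium release and pump genes, 12 were higher and 8 lower, with the exchanger gene *Slc8a1* at log2 -2.49 (SE 0.12). Of 18 endoplasmic reticulum stress genes, *Atf6* and *Manf* were higher, by log2 0.47 and 0.36, and 5 were lower, among them *Ern1* (-1.35) and *Atf4* (-1.03), again a share near the 38.8% of all genes. Of 7 immediate early genes, *Homer1* was higher (0.54), and *Nr4a2* (-2.16) and *Nr4a1* (-0.81) were lower, which is likewise near that share. Oligodendrocyte markers were higher for 4 of 7 genes tested (*Cnp*, *Mal* and *Mobp* among them), at a median log2 difference of 0.40. The part of free RNA or of doublets in these 4 was not tested, and the excitatory nuclei were deeper, with a median of 2839, 3724.5, 2169 and 2292 UMIs.

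**Figure D4:**
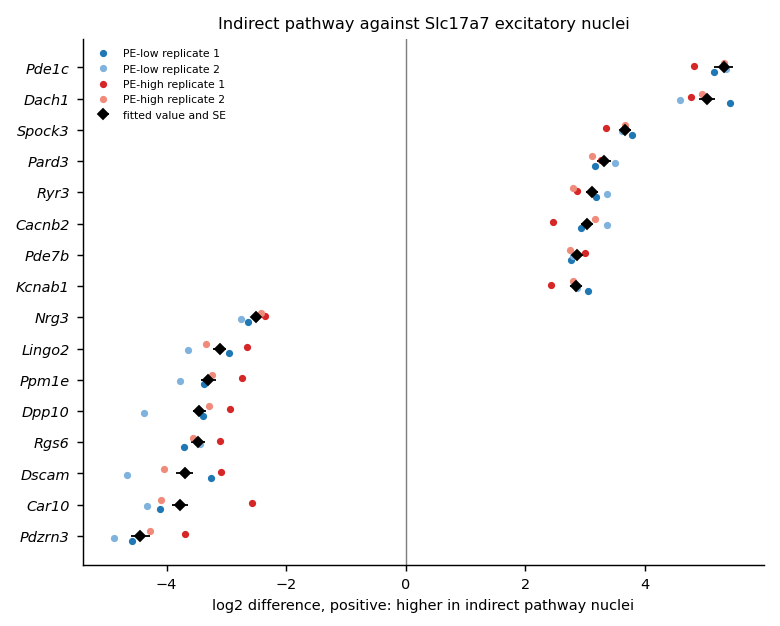
Log2 difference of indirect pathway from *Slc17a7* excitatory nuclei (x axis) for the 8 higher and 8 lower named genes, with 1 coloured point per library and a black diamond for the fitted value with its SE. *Pde1c* (5.32) and *Pdzrn3* (-4.44) lie at the ends, and PE-low replicate 2 gave the lowest point for *Dpp10*.

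Within indirect pathway nuclei, no gene passed between PE-high and PE-low. Of 7655 genes, 0 (0.0%) had an adjusted p under 0.1 by edgeR, 327 had an unadjusted p under 0.05, and DESeq2 gave 0 and 27. The PE-high and PE-low libraries did not overlap for 1245 genes that were higher (16.3%) and 1252 that were lower (16.4%) in PE-high. The count of passing genes could change when a library was left out, and moved most without PE-low replicate 1. In such a fit the lone library is taken to vary like the other group.

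*Dpp10* had the smallest p. It stood at 687 and 409 CPM in PE-low and 1106 and 936 CPM in PE-high members, on 758, 323, 377 and 414 UMIs, a log2 difference of 0.89 (SE 0.19, adjusted p = 0.671). Its groups did not overlap, and PE-low replicate 2 had the lowest value. The adjusted p was under the threshold in 8 of 17 alternative settings, among them 2.58e-13 without PE-low replicate 1, 0.022 without a filter on low genes, 0.00626 with a replicate block and 0.000692 with at least 2000 UMIs per nucleus (log2 1.60). After thinning to 1000 UMIs per nucleus the log2 difference was 0.37, with an adjusted p of 0.998.

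Several measurements were set beside the *Dpp10* level. Near-empty barcodes held it at 486, 660, 738 and 918 CPM, also higher in both PE-high libraries, and subtraction of that profile from the sums gave a log2 difference of 0.93 (adjusted p = 0.996). At least 1 *Dpp10* UMI was found in 49.1%, 52.9%, 48.6% and 48.8% of the members. Both PE-high shares lay below both PE-low shares, though close to that of PE-low replicate 1, opposite to the order of the level. Such a share depends on depth, and the PE-high members were shallower. The 39, 11, 17 and 13 members with at least 5 *Dpp10* UMIs held 55.4%, 31.0%, 67.6% and 60.1% of all its UMIs. Without these members, which were chosen on the outcome and so allow no test, the level was 343, 299, 419 and 410 CPM. Without members that held a *Slc17a7* UMI it was 542, 345, 1105 and 744 CPM. The part of free RNA and of a few members in the difference was not tested.

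In direct pathway nuclei, which shared the libraries, *Dpp10* stood at 743, 849, 1321 and 1042 CPM (log2 0.57, adjusted p = 1.0). With at least 2000 UMIs per nucleus *Dpp10* passed in direct pathway nuclei too (log2 0.96, edgeR adjusted p = 0.0272). The difference of the treatment effects between the classes was log2 0.33 (adjusted p = 1.0). It passed at the 3% mitochondrial limit (log2 1.40, edgeR adjusted p = 0.0435) and without PE-low replicate 1 (log2 0.85, adjusted p = 0.0296), and it was log2 -0.09 without PE-low replicate 2, -0.17 under the stricter gate and -0.30 after thinning. The other genes with the smallest p that were higher in PE-high were *Bicc1*, an RNA-binding protein (16.3 and 8.87 against 46.9 and 33.9 CPM), the phosphatase gene *Ptprk* (29.0 and 15.2 against 76.3 and 42.9), *Zfp804b* (44.4 and 8.87 against 99.8 and 58.8) and *Ndufb7*, a subunit of respiratory complex I (39.0 and 26.6 against 70.4 and 67.8). Each rested on fewer than 50 UMIs in each library, and none passed, with an adjusted p of 0.998. In the alternatives run, *Zfp804b* passed in 3 of 17, *Ptprk* in 3 of 16, *Bicc1* in 1 of 14 and *Ndufb7* in 1 of 17. The log2 difference of *Zfp804b*, 1.42, was 3.05 without PE-low replicate 1 (edgeR adjusted p = 8.02e-08) and 0.81 without PE-low replicate 2.

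Among the genes lower in PE-high, *Tgfa*, a growth factor of the EGF family, stood at 109 and 88.7 against 58.7 and 47.5 CPM. *Mbp*, a major myelin protein, stood at 238 and 236 against 176 and 124 CPM (log2 -0.68, SE 0.21). *Zfp335os* (39.0 and 26.6 against 5.87 and 13.6 CPM), *Ddi2* (48.1 and 51.9 against 29.3 and 18.1) and the tropomyosin gene *Tpm3* (52.6 and 44.3 against 23.5 and 22.6) completed the 5. None passed, also with an adjusted p of 0.998, and of these 5 *Mbp* passed in 1 of 17 alternatives. The summed oligodendrocyte list was also lower in PE-high, at 721, 730, 587 and 479 CPM in the members. Its level in near-empty barcodes was 4119, 4925, 2677 and 3089 CPM. Of its 6 genes tested, 1, *Cnp*, had a log2 difference above 0 (0.23). The part of this list in the *Mbp* values was not tested.

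Gene lists that bear on the question of the study held no gene that passed by edgeR or DESeq2, and *Slc8a1* was the 1 gene among PE metabolism, flippases, stress, amyloid processing, calcium and immediate early genes with an unadjusted edgeR p under 0.05. For PE metabolism, 12 genes tested had a median log2 difference of 0.11 against 0.00 over all genes, and *Etnk1*, ethanolamine kinase, stood at 211, 225, 202 and 244 CPM. For 9 flippases the median was -0.08, with *Atp8a1* at 430, 460, 387 and 423 CPM. For 16 endoplasmic reticulum stress genes it was 0.07, and *Atf4*, a transcription factor of the integrated stress response, stood at 14.5, 6.33, 20.5 and 22.6 CPM (log2 0.97, SE 0.53). The 2 groups did not overlap for *Atf4*, on only 16, 5, 7 and 10 UMIs, nor for *Atp8a1*. Over all genes tested, 16.3% were higher and 16.4% lower in PE-high without overlap.

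For 15 amyloid precursor processing genes the median log2 difference was 0.04. *App* stood at 501, 469, 552 and 502 CPM (log2 0.11, SE 0.17) and *Mme* at 71.6, 86.1, 82.1 and 138 CPM (log2 0.51, SE 0.25), and the groups overlapped for *Mme*. For 27 calcium release and pump genes the median was -0.11, with *Slc8a1* at 166, 113, 273 and 160 CPM. For 3 immediate early genes it was -0.02, with *Homer1* at 413, 285, 343 and 350 CPM.

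The identity genes of the members did not pass either by edgeR or DESeq2. Of 6 held-out indirect pathway markers, *Grik3* stood at 212, 214, 155 and 192 CPM (log2 -0.29, SE 0.20) and *Ptprm* at 303, 318, 302 and 350 CPM (log2 0.07, SE 0.18). Of 18 striatal markers, with a median of -0.07, *Bcl11b*, the transcription factor CTIP2, stood at 494 and 486 against 323 and 409 CPM (log2 -0.42, SE 0.18), and *Adcy5* at 584, 695, 440 and 574 CPM (log2 -0.34, SE 0.18). The groups did not overlap for *Bcl11b*, *Adcy5* and *Grik3*, beside 16.4% of all genes tested that were lower in PE-high without overlap. The members of PE-high were shallower. For 53 dopamine and cyclic AMP genes the median was -0.03, for 31 neuropeptide genes 0.02, for 33 glutamate and GABA receptor genes -0.03 and for 43 channel genes 0.02.

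The 7 striosome genes had a median log2 difference of 0.07, with 4 above 0, and the 6 matrix genes -0.30, with 2 above 0. Of the striosome genes, *Oprm1*, the mu opioid receptor, stood at 48.1 and 41.8 against 88.0 and 63.3 CPM (log2 0.71, SE 0.28) and did not pass. The interneuron peptide genes *Npy*, at 49.0 and 30.4 against 67.5 and 76.8 CPM (log2 0.83, SE 0.29), and *Sst*, at 73.4 and 44.3 against 109 and 81.4 CPM (log2 0.64, SE 0.27), had an unadjusted p under 0.05 without passing. The groups did not overlap for these 3 genes, beside 16.3% of all genes tested that were higher in PE-high without overlap. The summed interneuron list was also higher in both PE-high libraries, as was the astrocyte list, led by *Slc1a2* at 330 and 279 against 440 and 393 CPM, and the part of free RNA in these values was not tested.

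**Figure D5:**
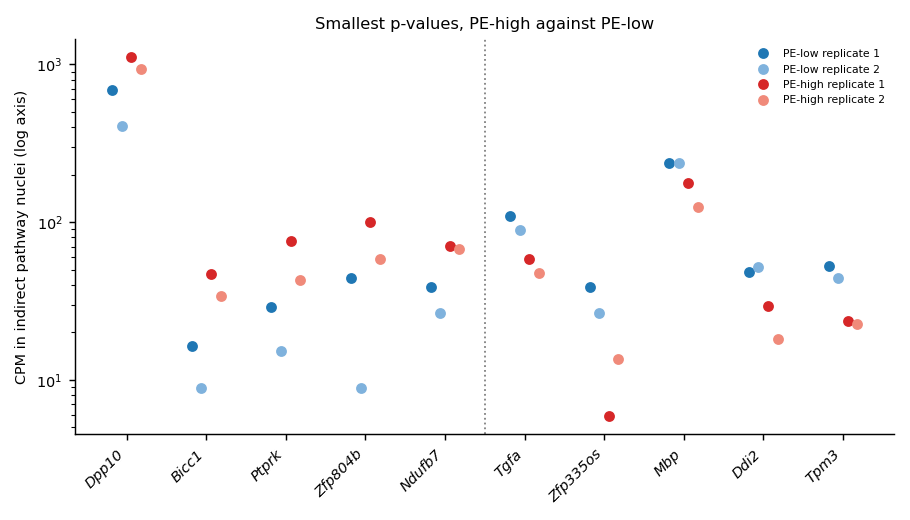
Level (CPM, log axis) of the 10 genes with the smallest p between PE-high and PE-low in indirect pathway nuclei, 1 point per library and 2 libraries per group, with the genes higher in PE-high left of the dotted line. *Dpp10* lay at 409 and 687 CPM in PE-low and at 936 and 1106 CPM in PE-high, and no gene passed the adjusted threshold.

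The treatment effect in indirect pathway nuclei was compared with that in direct pathway nuclei in 1 fit with an interaction term. Of 7585 genes, 0 (0.0%) passed by edgeR, 308 had an unadjusted p under 0.05, and DESeq2 gave 0 and 3. The 5 smallest p belonged to *Bicc1* (difference of effects log2 1.96, SE 0.54), *Dus3l*, a transfer RNA modifying enzyme (4.24, SE 1.20), *Clstn1*, calsyntenin 1 (0.88, SE 0.25), *Khsrp*, an RNA-binding protein (-1.73, SE 0.49), and *Prepl*, a peptidase (1.59, SE 0.47), each with an adjusted p of 1.0. *Dus3l* rested on 12, 12, 1 and 0 UMIs in direct pathway nuclei, so the size of its difference is uncertain. *Clstn1*, as an example, stood at 132, 137, 226 and 190 CPM in indirect and 204, 174, 178 and 142 CPM in direct pathway nuclei. Without PE-low replicate 1, 13 genes passed, and 1 and 5 without PE-low replicate 2 and PE-high replicate 2.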

How the data were processed

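Nuclei of frozen brain sections were profiled with 10x Genomics 3' v3.1 chemistry. The authors processed the reads with Cell Ranger 7.1.0 on mm10 and deposited raw UMI counts per gene and barcode for each library, unfiltered. The deposited gene and barcode lists hold other content, names and no measurement. Whether intronic reads were counted is not given in the sources used here.

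Nuclei had at least 1000 UMIs, 200 to 2500 genes and at most 10% mitochondrial UMIs, where the authors set 3%. Doublets and free RNA were not removed. The direct gate mirrored the indirect one, and excitatory nuclei had at least 2 *Slc17a7* UMIs, none of *Gad1* or *Gad2* and no striatal background. Counts were summed per library and kind, the genes of a gate left out of its test, and fitted with the edgeR 4.0.16 quasi-likelihood test in R 4.3.3 (TMM scaling, filterByExpr), with the library as a block where 2 kinds were compared and Benjamini-Hochberg adjustment over all genes tested. CPM are shares of all UMIs of a sum. The code was tested on simulated data. DESeq2 1.42.0, RLE scaling, other filters, a stricter gate, thinning to 1000 UMIs and leaving out each library were the alternatives.

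The members and lists were chosen with earlier results of these data known. Named genes were those of the gate, up to 4 per list by p plus the most abundant, the 12 by p in each direction against direct pathway nuclei and the 8 against excitatory nuclei (log2 of at least 1 in size, 4 of 4 libraries), the 5 by p in each direction between treatments, and the 5 by p of the interaction. Genes of a list without enough counts were not tested. Gene coordinates are from GENCODE M21 on GRCm38, and promoters from RefSeq, where *Penk* and *Adora2a* were not found. Some items are not reported here.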

Additional observations from a re-analysis of the deposited data

How the results depend on the processing

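Without a filter on low genes, at a 3% or a 5% mitochondrial limit and without an upper limit on genes, 1 gene passed between PE-high and PE-low instead of 0, and with at least 2000 UMIs 6 passed. Leaving out 1 library gave 0 to 83. The labels do not say whether the replicate numbers pair the libraries, which were treated as unpaired. The correlation of same-numbered deviations was 0.0256 over 7655 genes, which cannot decide the pairing. With a replicate block 2 genes passed. Against direct pathway nuclei, 372 genes became 121 by DESeq2, 162 without the library block, 158 at 3% mitochondrial UMIs, 212 with at least 2000 UMIs, 171 under the stricter gate, 208 after thinning and 253 to 365 without 1 library. Against excitatory nuclei, 3375 became 1916 by DESeq2, 2153 at 3% and 1925 after thinning. The interaction gave 1 gene, *Dpp10*, at 3%, 3 under the stricter gate and 0 to 13 without 1 library. Fewer nuclei or genes entered the filtered and thinned fits. Otherwise the cause was not tested. Members numbered 520 at 3%, 671 with at least 2000 UMIs and 549 under the stricter gate, against 1132, and the indirect share of 64.0% became 59.6% with at least 2000 UMIs and 75.3% under the stricter gate. The order of the treatment means of that share turned with at least 2000 UMIs and with *Drd2* or *Penk* left out of the gates, and the sign of the *Dpp10* interaction (log2 0.33) turned without PE-low replicate 2, under the stricter gate and after thinning. The 7 pathway genes passed without each library in turn, which is a description. *Drd2*, *Adora2a*, *Gpr6*, *Drd1* and *Pdyn* passed the filter on counts through 1 class. Leaving out each library for these genes, the 15% mitochondrial limit and the subtraction of the near-empty profile were chosen after seeing the data. The members held 1102811, 789455, 340844 and 442524 UMIs, which limits the precision most in PE-high.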
